A study of Mus musculus with 15 samples.

Results

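Sections of mouse embryos at embryonic day 11 (E11) and 12 (E12) were searched for pixels that hold transcripts of the 5′ Hox genes, the posterior members of the Hox clusters. Microfluidic channels had delivered DNA barcodes to the tissue in crossed directions, and a pixel is the square where 2 channels meet. Pixels were 25 µm wide in the 2 E11 libraries and 50 µm wide in the E12 library, and all were cut under 7 µm thick from frozen embryos with no treatment or mutation named in the labels. The labels do not give the strain, the sex, the part of the embryo cut or whether the E11 sections came from 1 embryo, so p-values measure only the spread between these sections. A pixel counted as tissue when its total count reached 0.1 of the 95th percentile of totals in its library. It counted as a 5′ Hox pixel, a member, when the summed counts of Hoxa9, Hoxc9, Hoxd9, Hoxa10, Hoxc10, Hoxd10 and Hoxd11 reached 2, and as Hox-free when it held none of these.

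By this rule 1125 of the 4743 tissue pixels in the 3 libraries were members, out of 17046 tissue pixels in all 11 transcript libraries of the series. E11 replicate 1 held 314 members among 1704 tissue pixels (18.4%, 95% Wilson interval 16.7 to 20.3%). E11 replicate 2 held 487 among 1504 (32.4%, 30.1 to 34.8%), and the E12 section 324 among 1535 (21.1%, 19.1 to 23.2%). These intervals cover counting error only, since neighbouring pixels are not independent. Pixels with exactly 1 count, just outside the rule, numbered 312, 274 and 294, and pixels with exactly 2, just inside it, 160, 184 and 131. Hox-free pixels numbered 1078, 743 and 917. The label of a posterior body region could be checked only against genes that the rule did not use, because Hoxc9, Hoxa10 and Hoxd11 chose the pixels. The members are therefore called 5′ Hox pixels here.

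Hox genes encode homeodomain transcription factors and lie in 4 clusters, A to D, numbered as paralog groups from the 3′ to the 5′ end of each cluster. Groups with higher numbers are switched on later and have anterior limits further toward the tail, an order known as collinearity. In the trunk, group 9 marks thoracic and more posterior levels, and groups 10 and 11 lumbar and sacral levels. Groups 9 to 13 are also used a further time in the limb buds. PBX and MEIS proteins are their cofactors on DNA, and CDX proteins activate them in the tail bud.

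The windows shown end just before the start site and give 250 bases on the gene's own strand, with every TTTAT, a run common to the sites of CDX proteins, in capitals in either orientation (ATAAA where it lies on the opposite strand). Hoxa10 and Hoxd11 are shown because they mark the members with groups 10 and 11. The windows are chr6:52240855-52241104 (minus strand) for Hoxa10 and chr2:74679308-74679557 (plus strand) for Hoxd11.
Hoxa10: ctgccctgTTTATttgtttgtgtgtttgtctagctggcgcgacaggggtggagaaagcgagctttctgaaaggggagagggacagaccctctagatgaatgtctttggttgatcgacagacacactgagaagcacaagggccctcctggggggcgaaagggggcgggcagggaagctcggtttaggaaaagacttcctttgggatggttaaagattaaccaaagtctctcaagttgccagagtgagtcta
Hoxd11: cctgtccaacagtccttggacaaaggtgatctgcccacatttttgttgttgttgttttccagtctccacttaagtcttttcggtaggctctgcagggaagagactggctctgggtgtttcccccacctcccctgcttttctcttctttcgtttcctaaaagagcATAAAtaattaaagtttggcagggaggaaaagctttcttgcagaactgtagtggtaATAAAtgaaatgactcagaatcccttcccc
The Hoxa10 window shown held 1 match and the Hoxd11 window shown 2. Each of these genes has another window, not shown, with 1 match for Hoxa10 and 0 for Hoxd11. The windows of Hoxa9, Hoxd9 and Hoxd10 held 0. RefSeq promoter windows (build GRCm38.p6) were found for 5 of the 7 genes, Hoxa9, Hoxd9, Hoxa10, Hoxd10 and Hoxd11, and 3 of their 7 windows held the run, against 37.3% of all 32851 windows of this length. A match describes the letters only.

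The members were deeper than the rest of the tissue. Their median total count was 4493, 6814 and 5216 in E11 replicate 1, E11 replicate 2 and E12, against 1959, 3021 and 3101 in Hox-free pixels. The ratio was 2.29, 2.26 and 1.68. A rule on counts favours deep pixels. Some of the gene tests below are therefore set beside those within pixels of middle depth (the 25th to 75th percentile of totals) or after thinning. The neighbours, grid positions and overlap of members between sections were not checked for depth in this way. For thinning, tissue pixels of at least 1000 counts (1523, 1504 and 1529) were each thinned to 1000, and a pixel was then a member from 1 rule count on, so that depth and rule changed together. It left 271, 262 and 266 members, and all other pixels (1252, 1242 and 1263) counted as Hox-free. Among these were pixels that had held rule counts before thinning, so thinned values compare other, more mixed classes than those above. In such bulk pixels, fewer cells of a type and less RNA per cell cannot be told apart. The share of counts from mitochondrial genes was lower in members than in Hox-free pixels of the same section, at 0.523 against 0.704%, 2.41 against 3.29% and 2.08 against 2.16%. In the other 8 transcript libraries only 4 pixels passed the rule, 3 in a 50 µm E10 section and 1 in a 10 µm E11 section. The 7 genes together stood at 244, 259 and 226 counts per 1000000 tissue counts (CPM) in the 3 libraries and at 0 to 11.7 CPM in the other 8.

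Members lay together on the grid, as the map of the sections shows. Of the tissue pixels that touch a member by a side, 43.0, 62.6 and 57.8% were members in E11 replicate 1, E11 replicate 2 and E12. Next to a Hox-free pixel the shares were 9.94, 12.8 and 7.10%. In E12 the share of members rose along the first grid coordinate, from 4.08% in channels 1 to 10 through 4.97, 18.7 and 47.4% to 65.5% in channels 41 to 50. In the E11 sections it rose along the second coordinate, from 0.909 to 51.6% in replicate 1 and from 3.32 to 61.7% in replicate 2. The E11 sections filled much the same grid: 1386 positions were tissue in both, which is 81.3% of replicate 1 and 92.2% of replicate 2. Of the 259 members of replicate 1 at shared positions, 161 (62.2%) were members in replicate 2 too, where 34.7% of shared positions were members.

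**Figure D1:**
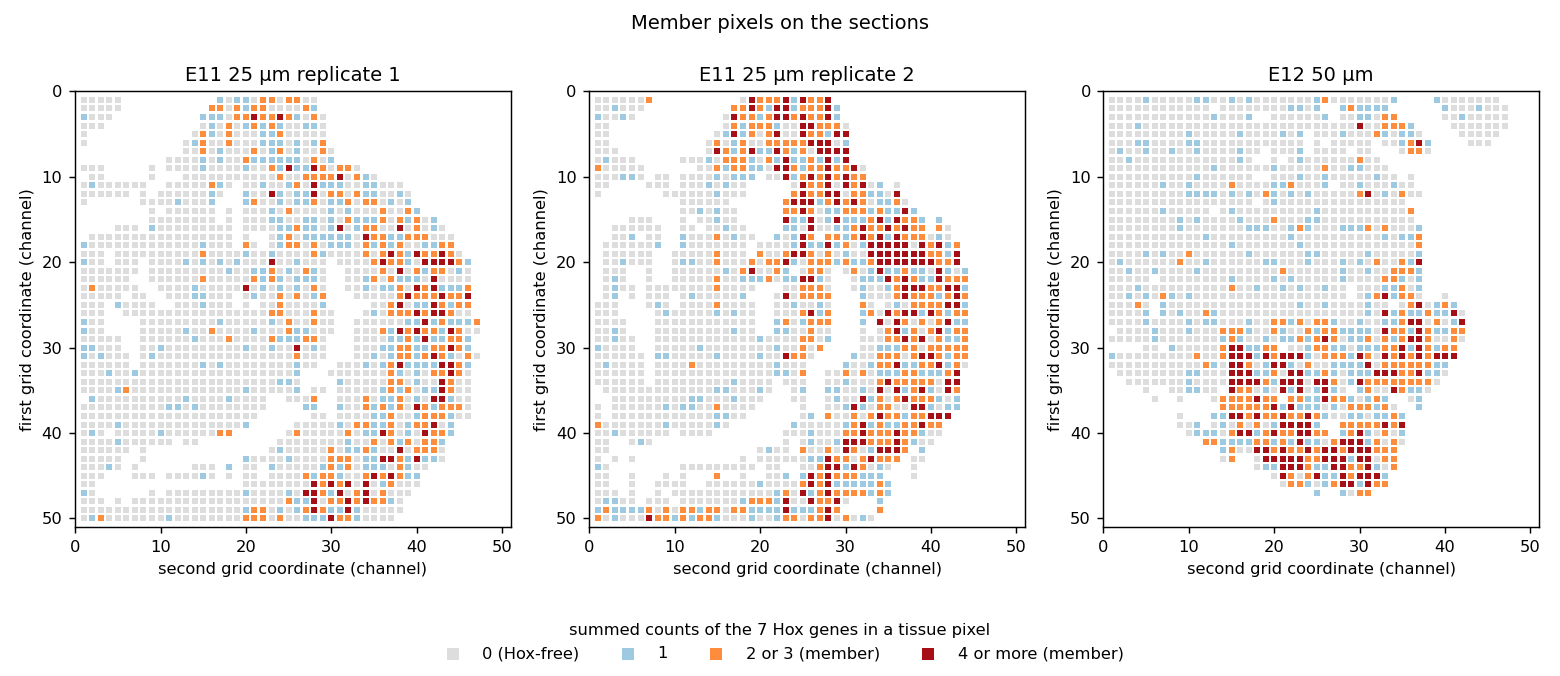
Tissue pixels of the 3 sections by their position on the barcode grid (channel numbers on both axes), coloured by the summed counts of the 7 Hox genes of the rule. Members are most frequent at second coordinates of 41 to 50 in the E11 sections (51.6 and 61.7%) and at first coordinates of 41 to 50 in E12 (65.5%).

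The genes that made a pixel a member differed between the sections, also between the E11 replicates. Stage, pixel width and section cannot be told apart here. These values chose the members and are given as a description. Hoxc9, a thoracic gene of group 9, led in E11 with 827 and 995 tissue counts and had 235 in E12. Hoxc10 had 74 and 356 counts in E11 and led in E12 with 454. Hoxa10 followed with 96, 179 and 351 counts. Hoxd11, a gene of sacral and limb levels, had 3 and 19 counts in E11 and 136 in E12. Pixels that were members through Hoxc9 alone made up 48.4 and 23.8% of members in E11 and 1.23% in E12. At least 2 different rule genes were seen in 46.5, 68.6 and 89.5% of members. A count of group 10 or 11 was present in 83 of 314, 251 of 487 and 308 of 324 members, and the remaining 231, 236 and 16 held group 9 alone.

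Each rule gene was then measured in classes chosen by the other 6, so that it had no part in the choice. Of the 6 genes that could be tested, 4 were higher in those members by edgeR's quasi-likelihood test with library as a block. In the same fits, with Hoxa9, Hoxc9, Hoxd9, Hoxa10, Hoxc10, Hoxd10 and Hoxd11 left out in turn, 2.56, 0.888, 2.51, 2.93, 3.08, 2.88 and 3.01% of all genes were called higher. Hoxa9 stood at 33.3 against 18.9 CPM, 59.0 against 21.8 CPM and 43.3 against 9.74 CPM in E11 replicate 1, E11 replicate 2 and E12 (log2 fold change 1.43 ± 0.22 SE, adjusted p = 0.00227). Hoxa10 stood at 22.2 against 15.7, 30.7 against 10.4 and 119 against 23.1 CPM (1.58 ± 0.28, adjusted p = 0.00968 by edgeR). Each was higher in the members of all 3 sections, by the largest ratio in E12. Hoxd9 (0.99 ± 0.24, adjusted p = 0.0340) and Hoxd10 (1.68 ± 0.44, adjusted p = 0.0361) also passed by edgeR. Hoxc9 (0.86 ± 0.33, adjusted p = 0.412) and Hoxc10 (1.24 ± 0.53, adjusted p = 0.310) did not. Hoxc9 stood at 182 against 156, 164 against 104 and 71.6 against 17.4 CPM, and Hoxc10 at 13.6 against 13.8, 53.0 against 35.0 and 170 against 28.7 CPM, so that Hoxc10 was level between the classes in E11 replicate 1. Hoxd11 had too few counts in E11 to be tested. In E12 it stood at 46.2 against 8.99 CPM. After thinning, with its lower threshold, 2 genes were called. The genes of 1 cluster lie close together, and how reads that span neighbours were assigned is not given in the sources used here, so values of neighbouring Hox genes may share reads.

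Other Hox genes, which the rule did not use, were tested between members and Hox-free pixels of the same sections. Of the 39 Hox genes 32 were outside the rule, 21 of these passed the filter on low counts, and 5 were higher in members: Hoxb9, Hoxd4, Hoxb1, Hoxb8 and Hoxb7. None was lower by edgeR, and 11 had an unadjusted p under 0.05. DESeq2 called 2, both higher. Among all 12833 genes tested, 964 (7.51%) were called, 365 (2.84%) higher and 599 (4.67%) lower. Hoxb9, the remaining gene of group 9, stood at 141 against 69.0 CPM in E11 replicate 1, 193 against 67.5 in E11 replicate 2 and 36.6 against 6.97 in E12 (1.47 ± 0.18, adjusted p = 0.000725 by edgeR). Hoxd4, whose expression begins in the hindbrain, stood at 96.5 against 39.2, 60.0 against 20.8 and 18.8 against 6.97 CPM (1.39 ± 0.17, adjusted p = 0.000391). Both were higher in the members of every section, while across sections the classes overlapped because both genes were lower in E12. The others were smaller by edgeR: Hoxb1 1.11 ± 0.26 (adjusted p = 0.0202), Hoxb8 0.83 ± 0.23 (0.0442) and Hoxb7 0.82 ± 0.20 (0.0292). Over 12 alternative settings their calls were kept in 6, 4 and 5, and those of Hoxb9 and Hoxd4 in 10 each. Over the 21 genes the median log2 fold change was 0.55, against 0.00336 over all genes tested, and 16 were above 0. After thinning, 13 of the genes could be tested, none passed and their median was 0.00324. In pixels of middle depth 2 of 16 passed and the median was 0.36.

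Some Hox genes went different ways in different sections. Hoxa7 stood at 25.3 against 14.5 CPM and 41.9 against 16.5 CPM in E11 but at 7.53 against 18.3 CPM in E12, a difference between stages that passed the test for it (E12 minus E11 -2.54 ± 0.49, adjusted p = 2.47e-05 by edgeR). Hoxa5, a gene of cervical and upper thoracic levels that the lung also uses, was close to even, at 32.8 against 30.2, 80.2 against 70.8 and 72.1 against 89.2 CPM (-0.06 ± 0.16, adjusted p = 0.881). Of the 21 genes, 13 were on the same side in all 3 sections, as were 42.9% of all genes tested. The noncoding RNAs of the clusters were rare, at 11.6 against 4.31, 6.19 against 3.59 and 1.08 against 0.581 CPM in sum. Hotair, a noncoding RNA of the C cluster, was seen once, in an E12 member.

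**Figure D2:**
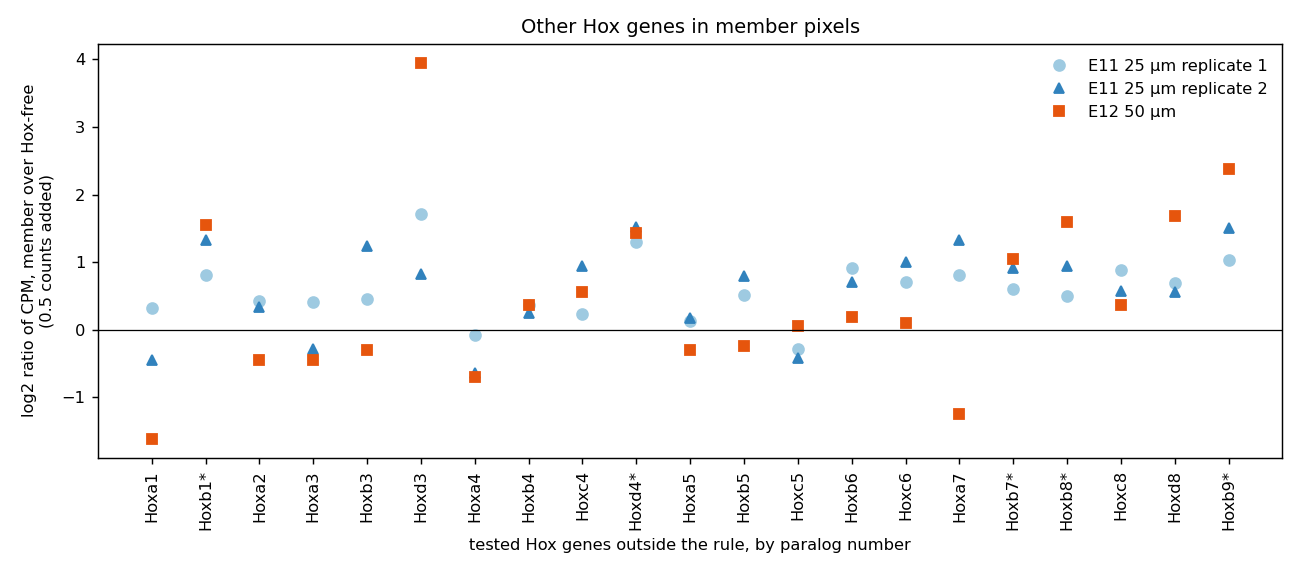
Log2 ratio of CPM (members over Hox-free pixels, with 0.5 counts added to each sum) for the 21 tested Hox genes outside the rule, ordered by paralog number, with 1 point for each section. Asterisks mark the 5 genes called by edgeR; Hoxb9 and Hoxd4 are above 0 in all 3 sections, and Hoxa7 is above 0 in E11 and below 0 in E12.

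Several of the most 5′ genes were seen mainly in E12. Hoxc12 had 27 counts in E12 members (14.5 CPM, exact Poisson interval 9.57 to 21.1) and 0 in Hox-free pixels, where 3 counts would give 0.871 CPM. It had no count in either E11 section. Hoxc11 had 38 counts in E12 members (20.4 CPM, 14.5 to 28.0) against 11 in Hox-free pixels (3.20 CPM, 1.59 to 5.72). Hoxd13, a gene of the digits, tail and genital tubercle, stood at 18.3 CPM (12.7 to 25.6) in members against 2.32 CPM (1.00 to 4.58). Hoxa11 was seen at both stages, with 24, 22 and 31 tissue counts, and stood at 3.42 against 4.71, 3.38 against 1.796 and 10.8 against 1.45 CPM. Hoxa13 had 0, 2 and 11 tissue counts, 3 of the 11 in E12 members. These intervals cover counting error in 1 library only.

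Along the E12 section the genes of cluster C from Hoxc8 to Hoxc12 lay in the order of their paralog number. The median first coordinate of counts over all tissue pixels was 28 for Hoxc8, 31 for Hoxc9, 34 for Hoxc10, 41 for Hoxc11 and 43 for Hoxc12. Hoxc4 stood at 28, level with Hoxc8, Hoxc5 at 22 and Hoxc13 at 42. In clusters A and B, Hoxa5 stood at 20 and Hoxb5 at 19. Spearman's rho between paralog number and median coordinate was 0.653 along the first and 0.805 along the second coordinate across the 30 Hox genes with at least 20 counts, a description across genes of 1 library that share its pixels. Along the first and second coordinate it was -0.231 and -0.205 across 26 genes in E11 replicate 1 and -0.388 and -0.290 across 28 in replicate 2. Some genes left the order in E12, such as Hoxd4 at a median first coordinate of 33 and Hoxb8 at 32, and Hoxd13 lay at the other end. Its median first coordinate was 6, and 40 of its 60 counts lay in channels 1 to 10, where 15 of 368 tissue pixels were members. Group 10 rose from 36.2 CPM in channels 1 to 10 to 330 CPM in channels 41 to 50, and group 11 from 14.04 to 148 CPM. Groups 5 to 8 were more even, at 193 and 324 CPM.

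In the E11 sections groups 9 and 10 lay at opposite ends. Group 10 stood at 104 and 245 CPM in channels 1 to 10 of replicates 1 and 2 and at 6.40 and 9.74 CPM in channels 41 to 50. Group 9 went the other way, from 174 to 483 CPM and from 158 to 544 CPM. The members with a count of group 10 or 11 had a median first coordinate of 16 and 14, against 30 and 34 for those with group 9 alone. In channels 1 to 20 lay 69.9 and 69.7% of the former and 22.1 and 17.4% of the latter. The position along the body is not given by the labels, so grid coordinates are not body coordinates.

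**Figure D3:**
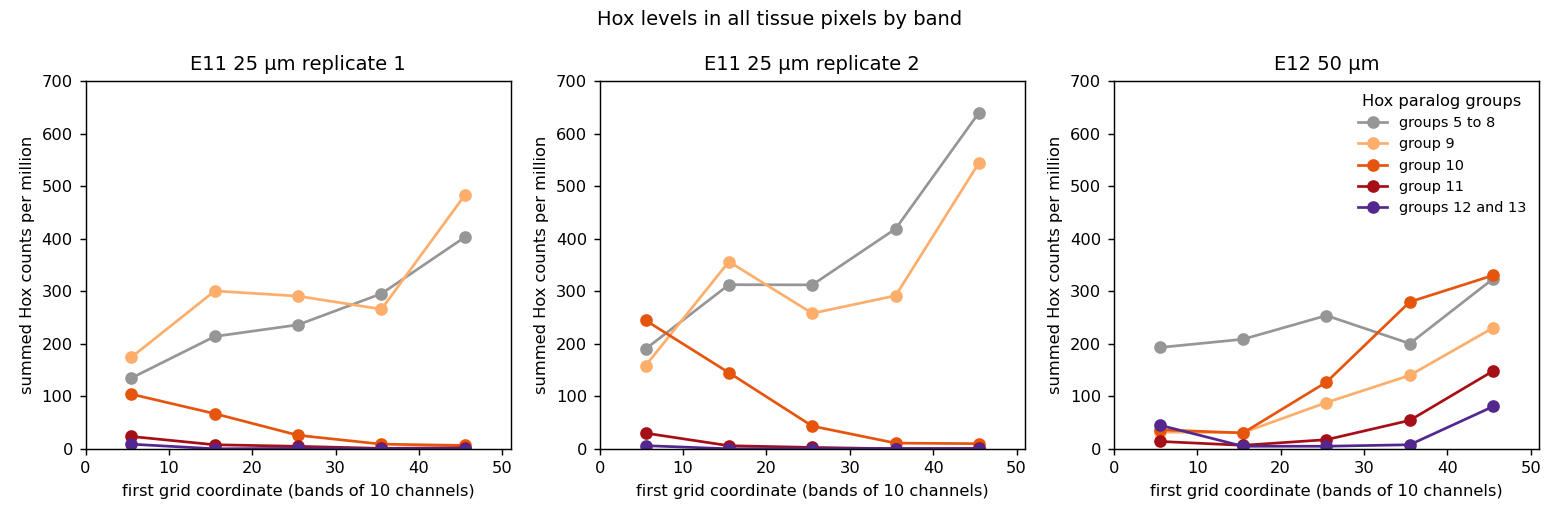
Summed CPM of Hox paralog groups over all tissue pixels, in bands of 10 channels along the first grid coordinate. In the E11 sections group 10 is highest in the first band (104 and 245 CPM) and group 9 in the last (483 and 544 CPM), and in E12 groups 10 and 11 are highest in the last band (330 and 148 CPM).

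Which other genes set members apart was tested on the sums of each class per section, without the 7 rule genes. Genes of the list named spinal neural progenitor were higher in members. Whether they came from spinal cord or brain was not tested. Of 12 tested genes on that list 10 were higher, none was lower, and the list's median log2 fold change was 1.14. Pax6, a homeodomain factor of ventral and intermediate progenitors, stood at 432 against 107, 193 against 41.7 and 17.2 against 4.65 CPM in E11 replicate 1, E11 replicate 2 and E12 (2.07 ± 0.14, adjusted p = 6.24e-06 by edgeR). Sox2, which maintains neural progenitors, stood at 189 against 60.8, 283 against 91.9 and 45.2 against 23.8 CPM (1.42 ± 0.17, adjusted p = 0.000439). Hes5, a Notch target that holds progenitors undifferentiated, stood at 246 against 92.9, 173 against 43.5 and 15.1 against 4.36 CPM (1.69 ± 0.16, adjusted p = 6.58e-05). In all 3 genes the members were higher in every section, and the levels in E12 were lower than in E11 in both classes. Olig2 of the motor neuron progenitor domain (1.72 ± 0.47), Notch1 (1.31 ± 0.17), Fabp7 (1.19 ± 0.13), Sox3 (1.10 ± 0.28), Irx3 (0.84 ± 0.22), Nkx6-1 (0.71 ± 0.18) and Nestin, Nes (0.62 ± 0.12), passed too, with adjusted p from 0.000200 to 0.0435 by edgeR. Sox1 and Dbx1 did not pass (1.10 ± 0.42 and 0.96 ± 0.42). Without E11 replicate 1 the count fell to 4 of 12, and without E11 replicate 2 to 5 of 9. After thinning it was 1 of 8, with all 8 above 0 and a median of 0.54, and at middle depth 4 of 9 with 7 above 0 and a median of 0.43.

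Neuronal genes were higher as well. On the general neuron list 5 of 10 were higher and all 10 were above 0 (median 1.09). Elavl3, an RNA-binding protein of new neurons, stood at 161 against 53.3, 163 against 39.5 and 118 against 22.1 CPM (1.96 ± 0.15, adjusted p = 1.38e-05 by edgeR). Elavl4 (1.72 ± 0.15), Map2 of dendrites (1.29 ± 0.15), neuronal tubulin Tubb3 (1.19 ± 0.16) and Stmn2 (0.99 ± 0.20) also passed. Of 12 tested genes of motor, sensory and autonomic neurons 4 were higher, among them Lhx4 (2.17 ± 0.42) and Isl2 (2.11 ± 0.36), factors of motor neurons, and Pou4f1 (1.52 ± 0.33), a factor of sensory neurons. Isl2 stood at 10.9 against 2.75, 13.2 against 3.95 and 14.5 against 2.03 CPM. Of the 15 genes on a forebrain, midbrain and hindbrain list only 2 had enough counts to be tested, and neither passed by edgeR (1 had an unadjusted p under 0.05) or DESeq2. The summed level of that list was 21.9 against 23.9, 19.98 against 20.5 and 93.6 against 66.5 CPM. After thinning, 3 of 10 genes of the neuron list passed, with a median of 0.61, and none of 3 of the motor, sensory and autonomic list.

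The largest increases among all genes tested were led by Ptchd2 (2.55 ± 0.49) and Neurod4 (2.44 ± 0.30, adjusted p = 0.000481 by edgeR), a proneural factor that stood at 16.4 against 5.49, 49.0 against 6.82 and 13.5 against 1.74 CPM. Next came the potassium channel Kcnk10 (2.23 ± 0.45), Neurod1 (2.23 ± 0.30), Ccdc182 (2.18 ± 0.36), Lhx4, the synaptic protein gene Rims2 (2.17 ± 0.47), Prdm12 of sensory neurons (2.12 ± 0.48), Isl2 and the neural factor Pou3f4 (2.08 ± 0.21). Each was higher in the members of all 3 sections, which the rule for naming required.

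Genes of the heart muscle, liver, red cell, and hindgut and epithelium lists were lower in members. Of 8 heart muscle genes 5 were lower and all 8 were below 0 (median -3.40). Myh6, the atrial myosin heavy chain, stood at 49.3 against 550 CPM, 22.5 against 492 and 22.6 against 248.6 (-3.86 ± 0.20, adjusted p = 1.02e-05 by edgeR). The ventricular light chain Myl2 stood at 73.9 against 763 and 38.8 against 492 CPM in E11 and was nearly absent from both classes in E12, at 0 against 1.74. Myl3 (-3.91 ± 0.21), Myl7 (-3.31 ± 0.16) and Nppa (-3.39 ± 0.24) passed too. All 8 heart genes were on the same side in all 3 sections. At middle depth all 8 passed with a median of -3.51, and after thinning 7 of 8 passed with a median of -1.13.

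Of 8 tested liver genes 5 were lower (median -2.73): Serpina1b, Apoa1, Fgb, Alb and Trf. Albumin, Alb, stood at 19.8 against 93.3, 17.7 against 180 and 252 against 860 CPM (-2.43 ± 0.30, adjusted p = 0.00991 by edgeR). Of 9 red cell genes 7 were lower (median -1.49), among them the adult globin gene Hbb-bs (-1.49 ± 0.09) and Alas2 of haem synthesis (-1.50 ± 0.15). The summed red cell list took 9868 against 28851 CPM, 7395 against 23918 and 54982 against 105649 CPM. CPM values are shares of a total that includes these genes. With mitochondrial, globin and pseudogene rows left out, 944 genes were called in place of 964 and the progenitor count was again 10 of 12. Of 7 tested genes on the hindgut and epithelium list 5 were lower, Cdh1, Krt8, Krt18, Epcam and Shh (median -1.39). Of 9 fibrillar collagen genes 4 were lower, Col1a1, Col1a2, Postn and Col5a1 (median -0.70). Of 8 endothelial genes Egfl7 alone was lower (-0.81 ± 0.18, adjusted p = 0.0172 by edgeR).

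The largest decrease was that of Lect2, a secreted protein of the liver, at 0.684 against 22.4, 0.282 against 13.3 and 1.08 against 10.2 CPM (-4.51 ± 0.50, adjusted p = 0.000200 by edgeR). It was followed by Fsd2 (-4.01 ± 0.59), Myl3, Myh6, A1cf (-3.80 ± 0.58), Pnliprp1, the muscle gene Xirp1 (-3.59 ± 0.50), Myl2, the cardiac Mybpc3 (-3.47 ± 0.21) and Nppa. Pnliprp1 had only 3 counts in members against 58 in Hox-free pixels, a ratio of 15.1 with a 95% counting interval of 4.93 to 75.5.

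**Figure D4:**
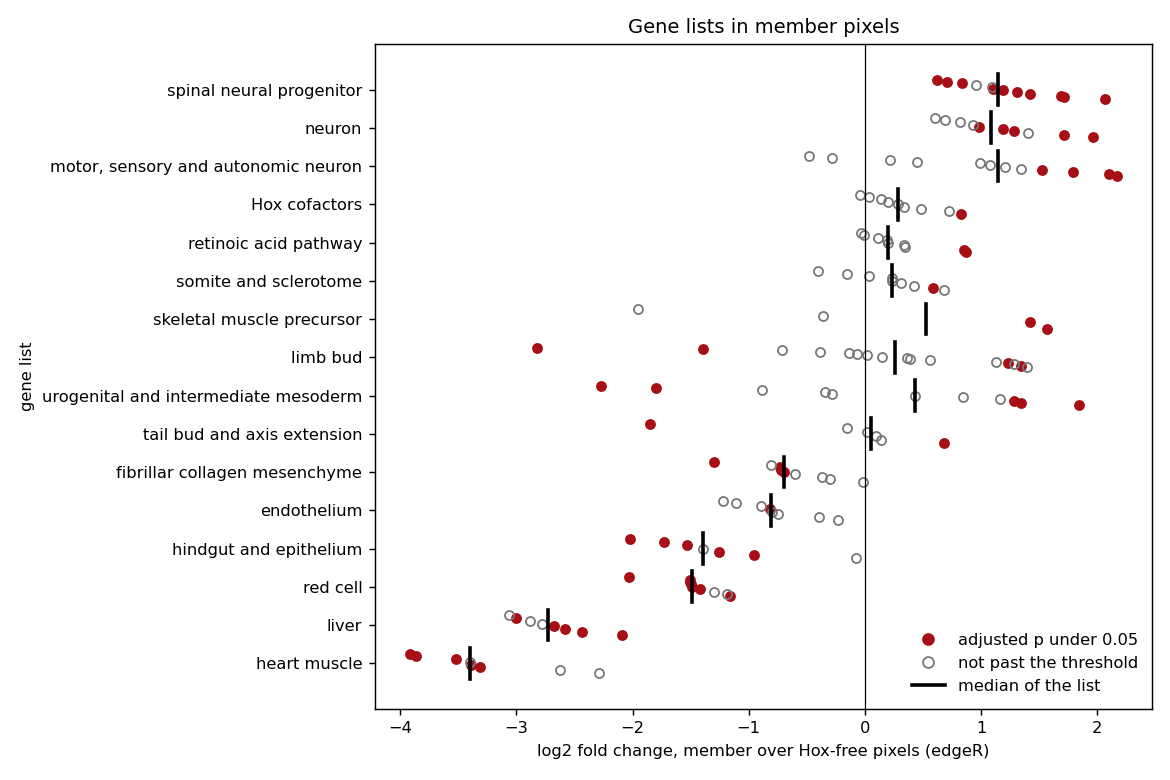
Log2 fold change (edgeR, members over Hox-free pixels) of each tested gene on 16 gene lists, with the median of each list as a black bar. Filled points passed an adjusted p of 0.05: the medians run from 1.14 for the spinal neural progenitor list to -3.40 for the heart muscle list.

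Mesodermal lists were mixed. On the limb bud list 2 of 16 genes were higher and 2 lower. Pitx1, a factor of the hindlimb, stood at 34.9 against 18.4, 25.9 against 7.18 and 44.1 against 19.5 CPM (1.24 ± 0.22, adjusted p = 0.00534 by edgeR). Tbx5, the factor of the forelimb that is also expressed in the heart, stood at 3.42 against 21.2, 0.844 against 28.4 and 9.15 against 27.3 CPM (-2.82 ± 0.51, adjusted p = 0.0147). Each kept its direction in all 3 sections. Lhx9 was higher (1.34 ± 0.25) and Hand2 lower (-1.39 ± 0.32), while the hindlimb factor Tbx4 did not pass (0.36 ± 0.28). At middle depth 6 of 13 limb bud genes were higher and 1 lower. Pax3 and Pax7, which mark the dorsal neural tube as well as muscle precursors, were higher (1.42 ± 0.33 and 1.57 ± 0.37) among 4 tested genes of the skeletal muscle precursor list. The other two did not pass, Actc1, an actin of heart and skeletal muscle, and the troponin gene Tnnt1 (-1.95 ± 0.65 and -0.36 ± 0.24). Of 9 tested somite and sclerotome genes Sox9 alone passed (0.59 ± 0.15).

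Of 11 tested urogenital and intermediate mesoderm genes 3 were higher and 2 lower. Lhx1, a gene of the nephric duct and of spinal interneurons, stood at 13.002 against 6.67, 14.9 against 3.95 and 39.8 against 6.97 CPM (1.85 ± 0.31, adjusted p = 0.00321 by edgeR). Sall1 (1.28 ± 0.20) and Lhx9 were higher, and Upk3b of the mesothelium (-2.27 ± 0.31) and Gata4 (-1.797 ± 0.31) lower. Of the genes of the tail bud and axis extension only 6 of 18 had enough counts to be tested. Gdf11, a ligand that sets the trunk-to-tail transition, was higher (0.68 ± 0.16). T, the notochord and tail bud factor brachyury, was lower (-1.85 ± 0.35, adjusted p = 0.00685 by edgeR), at 9.58 against 27.5 and 5.07 against 24.4 CPM in E11. In E12 T stood at 0.538 against 0.581 CPM, which is 1 against 2 counts and too few to give a direction. The cellular retinoic acid-binding proteins Crabp1 (0.87 ± 0.11) and Crabp2 (0.85 ± 0.14) were higher among 9 tested retinoic acid genes, and Meis3 (0.83 ± 0.17) among 9 Hox cofactors. None of 14 tested Wnt, FGF and BMP target genes passed by edgeR or DESeq2, and 1 had an unadjusted p under 0.05.

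The count of called genes depended on the sections used. It was 180 without E11 replicate 1, 433 without E11 replicate 2 and 2913 without E12, 573 by DESeq2, 77 after thinning and 331 at middle depth.

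Members differed among themselves by the Hox groups they held. Those with a count of group 10 or 11 were compared with those that held group 9 alone, again without the rule genes. Of 10884 genes tested, 102 (0.937%) were called by edgeR, 76 (0.698%) higher and 26 (0.239%) lower with group 10 or 11. Limb bud genes were higher: 10 of 13 tested passed, all 13 were above 0, and their median log2 fold change was 2.31, against 0.0158 over all genes tested. Tbx4 of the hindlimb stood at 10.8 against 4.58, 55.2 against 4.28 and 26.4 against 0 CPM in E11 replicate 1, E11 replicate 2 and E12 (3.08 ± 0.52, adjusted p = 0.000549). Pitx1, which acts before Tbx4, stood at 81.0 against 19.2, 49.3 against 4.82 and 46.0 against 0 CPM (2.70 ± 0.36, adjusted p = 1.78e-05). Prrx1, a factor of limb mesenchyme, stood at 127 against 23.8, 270 against 43.3 and 387 against 147 CPM (2.40 ± 0.20, adjusted p = 2.04e-10). All 3 were higher in the group 10 and 11 members of each section, though Tbx4 in E11 replicate 1 rested on 4 against 5 counts. In E12 the comparison class is small, 16 pixels in which 1 count is worth 13.3 CPM. The median total was 3983 against 4674, 6283 against 7396 and 5313.5 against 3668.5 counts in the 2 kinds of member. Prrx2 (2.73 ± 0.35), Lhx2 (2.44 ± 0.56), Lhx9 (2.31 ± 0.46), Shox2 (2.26 ± 0.36), Twist1 (1.83 ± 0.35) and Msx1 (1.23 ± 0.20) passed as well. Lhx2, Lhx9 and Prrx2 were higher in the E11 sections only. In E12 they stood at 7.85 against 26.7, 27.5 against 40.04 and 21.3 against 26.7 CPM, where 26.7 is 2 counts. In all, 8 of the 13 limb bud genes were on the same side in all 3 sections, as were 27.6% of all genes tested. En1 of the ventral limb ectoderm passed with 54 counts against 3, a ratio of 14.2 with a counting interval of 4.62 to 71.2. Tbx5 could not be tested here. Other lists moved with this split, and their part in the result was not tested. The summed fibrillar collagen genes stood at 624 against 433, 1282 against 501 and 3054 against 2709 CPM, and 7 of 8 tested genes were above 0 (median 0.81), of which none passed by edgeR or DESeq2 (4 had an unadjusted p under 0.05 by each). In E12 the neuron list stood at 2378 against 520 CPM, the somite and sclerotome list at 1499 against 347 and the red cell list at 52683 against 110571.

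Neural progenitor genes went the other way in E11. Of 11 tested, 2 were lower, Hes5 (-1.43 ± 0.19, adjusted p = 1.78e-05 by edgeR) and Sox2 (-1.16 ± 0.20, adjusted p = 0.00198), and all 11 were below 0. Sox2 stood at 89.1 against 223 and 160 against 393 CPM in E11 and at 46.5 against 13.3 CPM in E12, where the latter is 1 count. The summed progenitor list stood at 1191 against 1994, 957 against 2086 and 575 against 187 CPM, so that E12 did not share the direction. Gap43 of growing axons (0.87 ± 0.19), Crabp1 (0.86 ± 0.12) and Osr1 of intermediate mesoderm (2.86 ± 0.71) were higher. Among all genes the largest increases included Kank4 with 46 counts against 3 (ratio 12.1, counting interval 3.90 to 60.9), Col25a1 (2.68 ± 0.50), Dmrt2 (2.61 ± 0.62) and Lix1 (2.47 ± 0.38). The largest decreases were Map7 (-2.60 ± 0.64), Celsr1 (-1.32 ± 0.27), Nedd9 (-1.25 ± 0.31), Ildr2 (-1.18 ± 0.26) and Vtn (-1.05 ± 0.27), followed by Fndc5, Spon1, Fat3, Cxxc4 and Tfdp2, from -1.01 to -0.74. Of 18 tested Hox genes outside the rule none passed by edgeR or DESeq2, and 3 had an unadjusted p under 0.05. The nearest were Hoxb9 (-0.73 ± 0.19, adjusted p = 0.0514) and Hoxc8 (-0.82 ± 0.23, adjusted p = 0.0868).

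This comparison rested on E11 replicate 2. Without it edgeR called 0 genes (252 at an unadjusted p under 0.05), though all 7 limb bud genes still tested were above 0, with a median of 1.99. Without E11 replicate 1 it called 61 and without E12 321. DESeq2 called 6, 2 of them on the limb bud list. At middle depth 3 of 7 tested limb bud genes passed and after thinning 1 of 2. With size factors from RLE in place of TMM, 74 were higher and 42 lower, 63.8% higher in place of 74.5%.

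**Figure D5:**
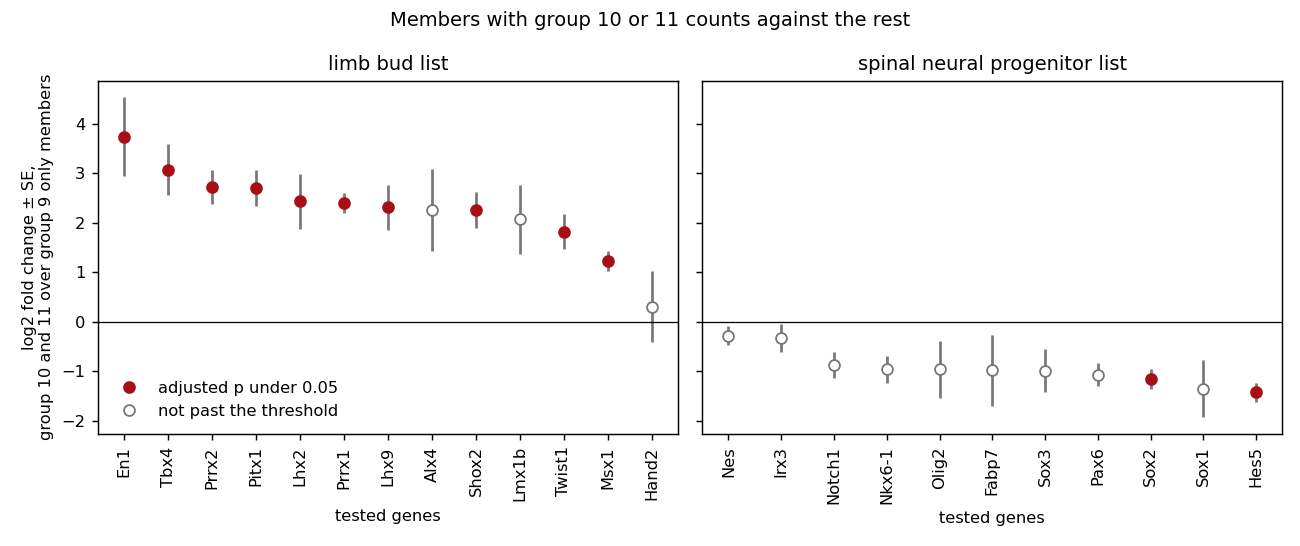
Log2 fold change ± SE (edgeR) of the tested genes of the limb bud list and the spinal neural progenitor list, for members with group 10 or 11 counts over members with group 9 alone. Filled points passed an adjusted p of 0.05: 10 of 13 limb bud genes above 0 and 2 of 11 progenitor genes below 0.

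Whether members differed from Hox-free pixels to the same degree at E11 and E12 was tested as the difference of the effects. This test has 1 residual degree of freedom, its spread rests on the 2 E11 sections, and stage, pixel width and section cannot be told apart. Of 12833 genes 871 (6.79%) were called by edgeR, 531 (4.14%) with a higher and 340 (2.65%) with a lower effect in E12. DESeq2 called 116, thinned pixels gave 10 and pixels of middle depth 103. Of 9 tested somite and sclerotome genes 6 had a higher effect in E12. Pax1, a factor of the sclerotome that forms the vertebrae, stood at 13.002 against 19.6 and 12.1 against 16.9 CPM in E11 and at 60.3 against 19.5 CPM in E12 (difference 2.02 ± 0.40, adjusted p = 3.37e-05). Col2a1 of cartilage stood at 263 against 549, 168 against 352 and 914 against 455 CPM (1.93 ± 0.14, adjusted p = 2.15e-41). In both genes the members were the lower class in the E11 sections and the higher class in E12. Tbx18 (2.65 ± 0.42), Foxc2 (1.98 ± 0.48), Pax9 (1.84 ± 0.53) and Sox9 (0.72 ± 0.18) passed too. Over the alternative settings in which each gene was tested, Pax1, Pax9 and Foxc2 kept their calls in 5 of 8. Tbx18 kept its call in 6 of 8, Sox9 in 6 of 9 and Col2a1 in 8 of 9.

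Neuron genes stood further above Hox-free pixels in E12. Of 10 neuron list genes 7 passed in that direction and none in the other. None passed at middle depth, where 7 of 10 were below 0, among them Dcx, Gap43, Stmn2 and Tubb3 of the 7 (from -0.54 to -0.013), or after thinning, where 3 of 10 were below 0, among them Stmn2 (-0.015). The light neurofilament gene Nefl stood at 74.6 against 56.9, 98.2 against 86.2 and 251 against 67.4 CPM (1.51 ± 0.21, adjusted p = 3.18e-10 by edgeR). Ntrk3, the receptor of proprioceptive neurons, stood at 6.16 against 21.96, 15.8 against 34.8 and 73.2 against 30.8 CPM (2.44 ± 0.35, adjusted p = 7.82e-10), and the peripheral neuron filament Prph followed (2.62 ± 0.56). For Ntrk3 the classes changed order between the stages. Lower effects in E12 were found for Pax3, at 80.8 against 23.1, 69.8 against 18.3 and 15.6 against 13.7 CPM (-1.81 ± 0.42), for Msx1 (-1.49 ± 0.23) and for Sox2 (-0.83 ± 0.28). Higher effects in E12, from deficits in E11, were found for 3 of 8 heart genes (Myh7, Tnnt2 and Tnni1), 4 of 8 liver genes (Alb, Apoa1, Fgb and Trf), 5 of 9 red cell genes (Hba-x, Hba-a1, Hba-a2, Hbb-bh1 and Hbb-y) and 4 of 8 endothelial genes (Pecam1, Cdh5, Kdr and Tek). The members were still the lower class in E12 for all of these but Cdh5, at 64.6 against 55.8 CPM, and Pecam1, at 39.3 against 36.6 CPM. Over the alternative settings, calls were kept in 7 of 9 for each of the heart genes and in 4 to 6 of 9 for the liver genes. They were kept in 3 to 7 of 8 for the red cell genes. For Tek it was 2 of 8, for Pecam1 4 of 8, for Kdr 4 of 9 and for Cdh5 5 of 9.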

How the data were processed

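The authors deposited, for each library, a table of counts per gene symbol and pixel with no normalization (unit seen in the deposited values: whole numbers of at least 0). Libraries came from cryosections and a Nextera XT kit, per the labels' protocols. The submitters' processing notes name CASAVA 1.8.2 and a build written as GRCh38, a name of the human genome, so no gene coordinates are given for these counts. The aligner, annotation, strand and handling of duplicates are not given in the sources used here. Members and gene lists were chosen with earlier results of these data known. Antibody tables were not used here.

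Counts were summed per library and pixel class, and pixels were never replicates. Tissue totals were 5066401, 7677938 and 6499879 counts in E11 replicate 1, E11 replicate 2 and E12. Sums were tested with edgeR 4.0.16 (R 4.3.3, limma 3.58.1): quasi-likelihood, robust fit, TMM, default filter, library as a block because both classes come from the same section, two-sided, Benjamini-Hochberg over all tested genes, threshold 0.05. This left 2 residual degrees of freedom. The 7 rule genes were left out of sums and tests, and CPM of other genes beside a test use these totals. CPM in the sentences on counts of single Hox genes use all counts. Values after ± are standard errors, computed as the absolute log2 fold change over the square root of edgeR's F statistic. DESeq2 1.42.0 was an alternative among 12. On simulated data with 100 genes changed at each size, the comparison of members with Hox-free pixels recovered 80 at a log2 change of 1 and 100 at 2, with 10 false calls, and the comparison of stages 8 and 63, with 0 false calls. Changed genes had at least 100 counts, and both simulations used 1 common dispersion, from the design of members against Hox-free pixels. In the fits to the data the common dispersion was 0.0179 for that comparison and 0.00348 for the stages. The simulated recovery and false calls therefore do not measure those of the stage test on the data. Genes named come from the Hox genes, the called genes of the lists, and up to 10 called genes per direction with the largest change whose member value is on the same side in all 3 libraries (for the difference of stages, whose ratio of members to Hox-free pixels in E12 lies beyond both E11 ratios), leaving out Gm, Rik, clone and pseudogene symbols. Genes of a list that did not pass are given as values. A few genes that this rule would name are not reported here.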

Additional observations from a re-analysis of the deposited data

Results flagged for a closer look

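For 20 genes the effect of membership differed between E12 and E11 by edgeR's test of the difference itself (adjusted p under 0.05, values as E12 minus E11 on the log2 scale). They are the 10 largest in each direction by the rule for named genes, and stage, pixel width and section cannot be told apart here. On the higher side stood Acan, the proteoglycan core protein of cartilage (5.38), and Papss2, an enzyme of sulfate activation (4.60). Acan stood at 0 against 16.9, 0.563 against 9.34 and 32.3 against 18.6 CPM in members against Hox-free pixels of E11 replicate 1, E11 replicate 2 and E12. Also higher were Tmprss6 (5.91), Serpina10 (4.34), Fcna (4.10) and F12 (3.96), which encodes coagulation factor XII of the liver. Pld5 (6.62), Nat8f4 (6.23), Elovl7 (4.38) and Prkaa2 (3.64) complete the higher side. Pld5 and Tmprss6 had no count in members of either E11 section and Nat8f4 none in Hox-free pixels of E12, so that these fitted values depend on the prior count.

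On the lower side stood Pih1d2 (-7.19), with no count in E12 members and therefore a value that depends on the prior count. After it came, among others, Fan1 (-2.95), Krt14 (-2.77), Slitrk6 (-2.58), Hoxa7 (-2.54), Napepld (-2.33), Ak4 (-2.29), Msra (-2.17) and Th (-2.15). Krt14, a keratin of the skin's basal layer, stood at 4.11 against 1.57, 2.25 against 1.08 and 9.69 against 26.1 CPM.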

How the results depend on the processing

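Calls for members against Hox-free pixels numbered 964, and 573 with DESeq2, 1675 without a filter on low counts, 77 after thinning (always with members from 1 rule count on) and 331 at middle depth. Leaving out 1 section gave 180 to 2913. For group 10 and 11 members the count of 102 became 6 with DESeq2, 4 after thinning, 18 at middle depth and 0 to 321 with 1 section left out. For the difference of stages the count of 871 became 116 with DESeq2, 417 with at least 3 rule counts, 10 after thinning and 103 at middle depth. Leaving out a section was not run there, since no residual degree of freedom, or no E12 library, would be left. Without the replicate block, that is without pairing classes by section, edgeR called 0 genes in each of these 3 comparisons (807, 301 and 196 at an unadjusted p under 0.05) and 0 of the rule genes left out in turn, which had 4 calls with the block and 2 after thinning. With at least 3 rule counts, 27.8% of the neighbours of members were members in E11 replicate 1 in place of 43.0%, and 2 pixels passed in the other libraries in place of 4. Among the named genes called in these 3 comparisons, direction changed only after thinning or at middle depth, and no gene that changed passed the threshold there. At middle depth these were Nkx6-1 (-0.059) and Sox3 (-0.58) in members. For group 10 and 11 it was Gap43, at -0.46 thinned and -0.59 at middle depth. For the difference of stages, thinning gave Col1a1 -0.15, Dcn 0.074, Fgb -2.18, Isl1 -0.038, Lum -0.17, Rarb 0.088, Stmn2 -0.015, Tbx5 -0.51 and Tnni1 -0.30, and middle depth Col1a1 -0.0875, Dcx -0.54, Gap43 -0.013, Stmn2 -0.049, Trf -0.15 and Tubb3 -0.10. The cause was not tested. The counts of Hoxd11 in E11 were too few for a test.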
